A study of Homo sapiens with 6 samples.

Results

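The 58 genes of DNA replication and replication licensing were followed in U87-MG cells, an established human glioma cell line, after transfection with siRNA labelled as directed against GRIK1, a kainate-type glutamate receptor subunit. The genes were taken by name as a fixed list of origin, helicase, polymerase, clamp, nucleotide supply, fork protection and chromatin genes out of 61806 genes in the table, and all 58 were expressed above the minimum for testing, a mean of 0.5 FPKM (reads per kilobase of exon and per 1000000 counted reads). Total RNA was sequenced. The negative control (NC), whose genotype label is wildtype, has 3 libraries, and the cells labelled GRIK1 siRNA, whose genotype label is GRIK1 knockdown, have 3 as well. All 6 came from U87-MG cells, and the labels name no other allele or drug. The study designed 3 siRNA sequences and states that it went on with siRNA1 after a comparison of their efficiency, the design text speaks of shRNA, and the labels do not settle whether the numbers 1 to 3 mark replicates or sequences. Nothing states that the libraries came from separate cultures, so the p-values measure the spread between these libraries, which may be technical.

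Before S phase, the origin recognition complex (ORC1 to ORC6), CDC6 and CDT1 load the MCM2 to MCM7 ring onto DNA, a step called licensing, and geminin (GMNN) blocks CDT1 afterwards. CDC45 and the GINS proteins then turn the loaded ring into the active helicase, polymerases alpha, delta and epsilon copy the strands, and PCNA, the sliding clamp, is placed by the RFC loader. Many of these genes are targets of the E2F transcription factors and are transcribed around the G1/S transition, which is why they are often read as a sign of proliferation in tumour cells.

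Transcripts of the replication genes were lower in the libraries labelled GRIK1 siRNA. Of the 58 genes, 54 had a negative log2 fold change (siRNA against NC) and 4 a positive one, with a median of −0.50 against −0.02 over the 15870 genes tested. In the edgeR quasi-likelihood test with Benjamini-Hochberg adjustment over all genes, 11 of the 58 (19.0%) were significantly downregulated at an adjusted p under 0.05, where 1.48% of all tested genes were called lower. The 11 were WDR76, CLSPN, CDC45, CDC6, CDCA7, DTL, MCM5, RRM2, ORC6, MCM3 and MCM4. No member was called higher, against 1.61% of all genes. At an unadjusted p under 0.05, 27 members were lower and 1, TK1, was higher, beside 2090 lower and 1897 higher of the 15870 genes, and DESeq2 also called 0 members higher. The mRNA of a bulk culture was measured, so fewer cells in S phase and less of each transcript per cell cannot be told apart.

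These calls depended on which libraries were compared. The third NC library stood apart from the other NC libraries, and without it 30 of the 58 genes were called lower (51.7%, against 18.3% of all genes) and 2 were called higher (TK1 and RPA2, against 16.9% of all genes). All 11 genes were among the 30, and the median of the 58 was −0.40, beside 0.01 for all genes. When NC library 1, NC library 2, or siRNA library 1, 2 or 3 was left out instead, 0 members passed, and neither did any other of the 15870 genes. The smallest adjusted p among the members was then between 0.0677 and 0.206, with 19 to 29 members lower at an unadjusted p under 0.05 beside 2238 to 4434 of all genes in either direction, while the log2 fold changes of the 11 lay between −1.51 and −0.62.

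**Figure D1:**
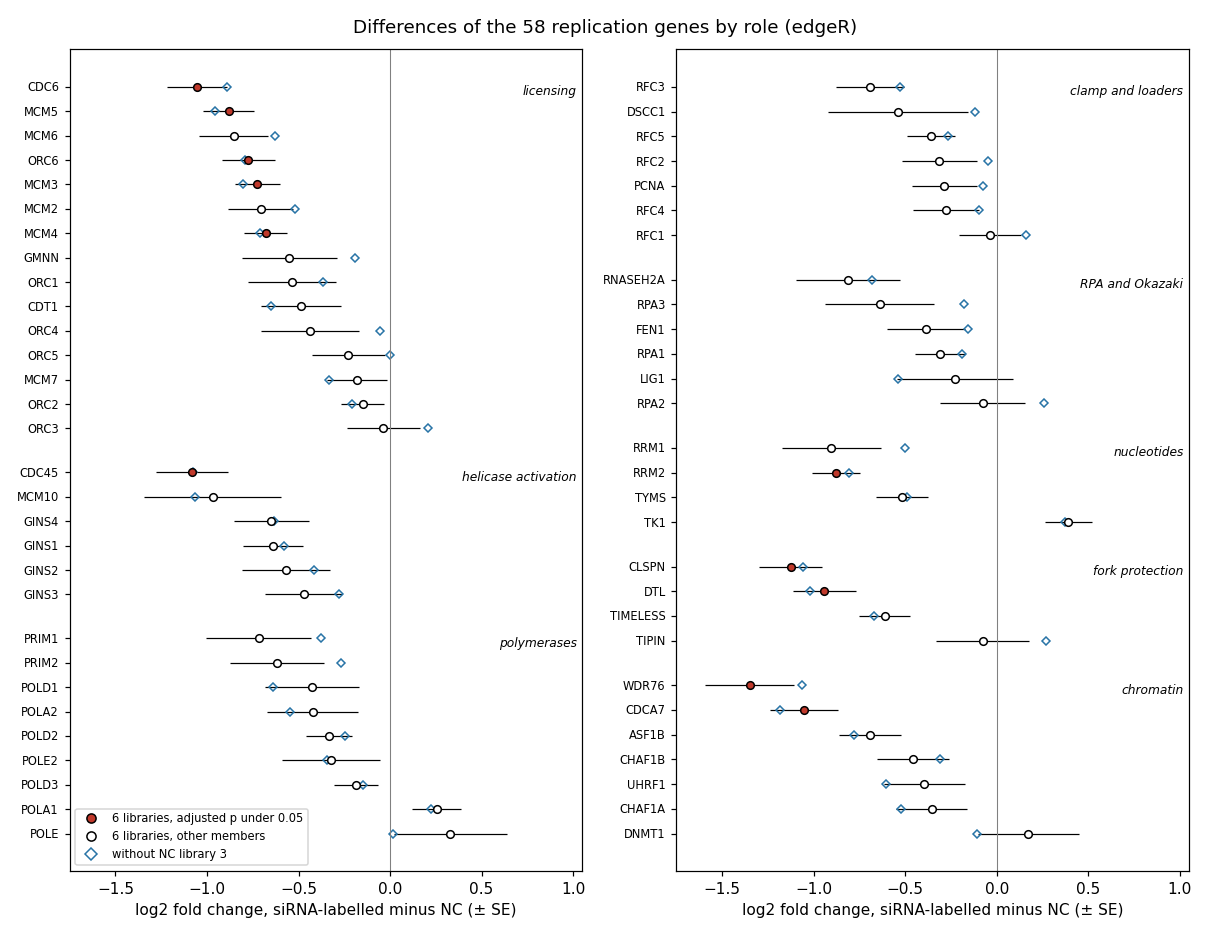
Log2 fold change (siRNA against NC) of all 58 replication genes, grouped by role, with bars of 1 standard error from the edgeR fit of 6 libraries. Filled points mark the 11 genes at an adjusted p under 0.05, open points the others, and diamonds the fit without NC library 3. The genes lie to the left of 0 except TK1, POLE, POLA1 and DNMT1.

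The letters around the start sites were examined as a description of the members. The members were taken by name, but with earlier results of these data known. The windows of all genes were those of genes tested in these libraries. The shares below thus depend on the libraries through both choices. RefSeq promoter windows (GRCh38.p14, from 250 bases before to 50 after the start) were available for 50 of the 58 genes. Forms of the E2F site were searched on both strands. The search began with TTTGGCG and was widened to TTTCCCG by changing the core of the site, and further to TTTCGCG by changing another base and finally, as the last form, to TTTGCCG. At least 1 of them stood in 29 of these windows (58%), whereas they stood in 1635 of the 9947 windows of tested genes (16.4%). CCAAT, the NF-Y box, was searched on both strands too and was found in 32 windows of members (64%) and in 43.2% of all. Among the downregulated genes with a window, 6 of 8 held the E2F letters, as did 23 of the 42 windows of members that were not called. The windows of ORC6 and RRM2 did not hold them, and neither did that of TK1. The stretches of 30 bases around the letters are shown for the 5 called genes that held them in a window and had the largest fold changes of these. Each is written 5′ to 3′ on the strand of its gene, with the E2F letters, or their reverse complement, in capitals.
CLSPN, chr1:35769965-35769994, minus strand: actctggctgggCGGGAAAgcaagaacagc
CDC45, chr22:19479883-19479912, plus strand: gaggagccgtgaTTTGGCGggagtcttgac
CDC6, chr17:40287874-40287903, plus strand: tggccattcggaTTTGGCGcgagcgcggct
CDCA7, chr2:173354796-173354825, plus strand: tgtgtcccaacgCGGGAAAgacagcccgag
DTL, chr1:212035740-212035769, plus strand: TTTGGCGcggagTTTGGCGgccggggctta
DTL carried the letters a pair of times within this stretch. The window of CDC6 also held 2 matches, at −28 and 7 from the start site, and only the later match is in the stretch shown. Each of the 5 stretches overlapped an annotated exon of its own gene. The stretches of CDC45, CDC6 and DTL all held TTTGGCG, and those of CLSPN and CDCA7 held CGGGAAA, the reverse complement of TTTCCCG. A match of letters is a description and binding was not measured.

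Between 11099909 and 14006968 reads were counted on genes per library. Values of single genes are in CPM, counts per 1000000 reads after TMM scaling, which sets the libraries to a common level over the tested genes. GRIK1 itself was near the limit of detection, at 18, 9 and 8 counts for NC and 15, 20 and 20 counts for siRNA libraries. GRIK1 was under the minimum for testing, and in a separate edgeR fit without that minimum its log2 fold change was 0.44 with a standard error of 0.43 (edgeR adjusted p = 0.620), so the libraries did not show less GRIK1 transcript under the knockdown label, and the label is used here as a name only. The ratio of the summed counts, siRNA to NC and scaled to total counts, was 1.49 (exact 95% interval 0.958 to 2.35, counting error only). NC library 3 had 9.37% of its counts on genes for ribosomal proteins, where the other NC libraries had 5.24% to 5.50% and the siRNA libraries 4.79% to 4.86%. Of the 11 glial and glioma markers, VIM and CD44 were high, AQP4 was at 0 in every library, and GFAP, S100B and SOX2 were near 0. GFAP, under the minimum for testing, had 13, 11 and 8 counts in NC and 39, 36 and 38 counts in siRNA libraries, without overlap. SLC1A3, a glial glutamate transporter, was called lower, with 72.6, 73.7 and 62.8 CPM in NC and 41.2, 44.2 and 44.7 CPM in siRNA libraries (log2 fold change −0.68, SE 0.12, edgeR adjusted p = 0.0378). The summed FPKM of the 11 was 880 to 1156 in NC and 1071 to 1101 in siRNA libraries, of which VIM made up 825 to 1076 and 1005 to 1038. The sums of 5 markers each of neurons (3.50 to 6.57 in NC, 5.86 to 6.15 in siRNA), immune (all libraries 1.17 to 1.65), endothelial (0.03 to 0.11) and epithelial cells (1.61 to 3.18) were low, with AIF1, CD3E and KRT14 at 0. As NC means, SLC1A3, SOX9, OLIG2, NES and SLC1A2 had 3.19, 2.74, 0.553, 0.467 and 0.103 FPKM. The neuron markers GAD1, SNAP25 and SYT1 had 3.01, 1.91 and 0.40 FPKM, and RBFOX3 and SLC17A7 had less. Apart from VIM and CD44, the glial and neuron lists thus had similar low levels. The part of the differences between libraries and groups in the results was not tested.

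As a sum, the 58 genes received 1519, 1496 and 1525 of each 1000000 counted reads from the controls. The same sum was 1243, 1233 and 1197 for siRNA libraries. The sums of the siRNA libraries all lay below those of the NC libraries. On this scale, without TMM, NC library 3 was level with the other NC libraries. After TMM scaling, the median log2 deviation of the 58 genes from their means over 6 libraries was 0.40 in NC library 3. It was 0.20 in NC libraries 1 and 2. In single genes NC library 3 was not level. It was the highest of the 3 NC libraries for 33 members and the lowest for 20. Its log2 ratio to the other NC libraries was 1.08 for RPA3 and 0.97 for RRM1, and −1.27 for POLE and −1.25 for LIG1. Across the 58 genes this ratio went with exonic size (Spearman's rho −0.39, a description over genes of the same libraries), longer genes being lower in that library. For 36 members (62.1%) the CPM values of all siRNA libraries lay below those of all NC libraries, against 19.0% of all genes, and for 2 members, TK1 and POLA1, they all lay above, against 19.4% of all genes.

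Licensing genes accounted for 5 of the 11 calls. All 15 of them had a negative fold change, with a median of −0.55, and 9 were called lower without NC library 3. CDC6, the ATPase that brings the MCM ring to the origin, was measured at 24.9, 25.3 and 33.9 CPM in NC and at 14.0, 13.8 and 12.7 CPM in siRNA libraries. The groups did not overlap, and the highest siRNA value was well below the lowest NC value. Its log2 fold change was −1.05 with a standard error of 0.16 (edgeR adjusted p = 0.0306), and −0.89 without NC library 3. ORC6, the smallest subunit of the origin recognition complex, gave 16.3, 13.6 and 14.3 CPM in NC and 8.33, 8.80 and 8.67 CPM in siRNA libraries. Its values were tight in both groups, and it was downregulated by a log2 fold change of −0.78 (SE 0.14, edgeR adjusted p = 0.0408). The other ORC subunits did not pass, with log2 fold changes from −0.54 for ORC1, an ATPase of the complex, to −0.04 for ORC3, whose direction turned to 0.21 without NC library 3. CDT1, the partner of CDC6 in loading, stood at 13.6, 10.3 and 8.12 CPM in NC and 6.84, 7.95 and 8.07 CPM in siRNA libraries. Its lowest NC value was barely above its highest siRNA value (log2 fold change −0.49, edgeR adjusted p = 0.213). The value was −0.65 without NC library 3, which passed (edgeR adjusted p = 0.00332), and −0.27 without NC library 1. GMNN, the inhibitor of CDT1, had a log2 fold change of −0.55 (SE 0.26, edgeR adjusted p = 0.229) and −0.19 without NC library 3.

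The 6 subunits of the MCM ring, which forms the core of the replicative helicase, were not equally lower. MCM3 was measured at 88.8, 94.5 and 76.6 CPM in NC and 54.2, 53.1 and 49.9 CPM in siRNA libraries. This gave a log2 fold change of −0.72 (SE 0.12, edgeR adjusted p = 0.0366), with a clear gap between the groups. MCM4 gave 75.1, 72.8 and 69.3 CPM in NC against 48.2, 46.2 and 41.3 CPM (log2 fold change −0.68, SE 0.12, edgeR adjusted p = 0.0369). MCM5 went from 29.9, 26.9 and 24.1 CPM in NC to 14.9, 13.4 and 15.6 CPM (log2 fold change −0.88, SE 0.14, edgeR adjusted p = 0.0310). In these 3 subunits NC library 3 was the lowest NC library, and the fold changes without it were slightly larger, at −0.80, −0.71 and −0.96.

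MCM6 and MCM2 had the opposite pattern within the controls. MCM6 stood at 45.0, 52.4 and 73.2 CPM in NC and 32.3, 29.7 and 32.4 CPM in siRNA libraries, a log2 fold change of −0.85 that just missed the threshold (SE 0.19, edgeR adjusted p = 0.0573). MCM2 stood at 21.1, 20.1 and 29.04 CPM in NC and 15.6, 13.5 and 14.0 CPM in siRNA libraries (log2 fold change −0.71, SE 0.18, edgeR adjusted p = 0.0744). For both genes the groups did not overlap, NC library 3 was the highest, and without it both passed, with log2 fold changes of −0.63 and −0.52. MCM7 was the subunit with the smallest difference. It was measured at 93.3, 101 and 67.2 CPM in NC and 80.9, 75.4 and 73.9 CPM in siRNA libraries, and the groups overlapped only through NC library 3 (log2 fold change −0.18, edgeR adjusted p = 0.512). Without that library MCM7 was lower by a log2 fold change of −0.34 (edgeR adjusted p = 0.000395).

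On the scale of FPKM, which allows for gene length, the ring subunits were unequal in both groups. Mean NC levels were 23.1 FPKM for MCM3, 19.4 for MCM7, 13.1 for MCM6, 7.12 for MCM4, 4.76 for MCM2 and 3.61 for MCM5. The highest subunit exceeded the lowest by a ratio of 5.92, 6.99 and 6.32 in NC and 8.99, 9.29 and 7.86 in siRNA libraries, so the spread of levels was wider in each siRNA library. The highest subunit was MCM3 in each NC library and MCM7 in each siRNA library, and the lowest was MCM5 in all of them. The summed FPKM of the 6 subunits was 73.6, 77.0 and 62.6 in NC and 52.8, 49.6 and 48.7 in siRNA libraries, without overlap.

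**Figure D2:**
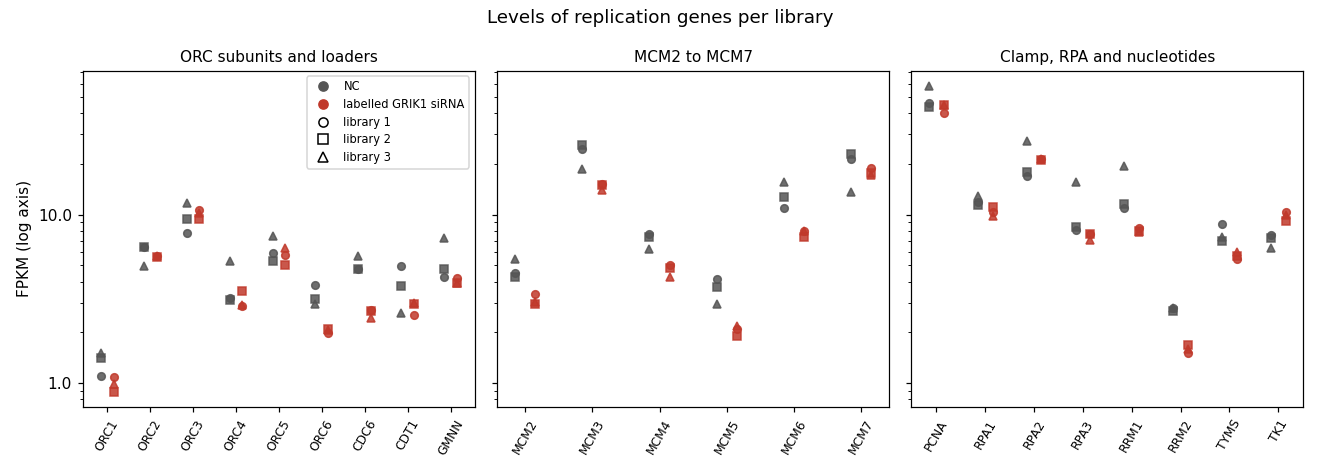
Level in FPKM (log axis) of the origin and loading factors, the MCM ring, and the clamp, RPA and nucleotide genes, with circles, squares and triangles for libraries 1, 2 and 3 of NC (grey) and of the cells labelled GRIK1 siRNA (red). The siRNA points of MCM3, MCM4 and MCM5 lie below all NC points, those of MCM7 and PCNA overlap the NC points, those of TK1 lie above, and the NC triangle stands far from the other NC points for RPA3 and RRM1.

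Activation of the helicase showed 6 of 6 genes with a negative fold change, a median of −0.65 and 1 call. CDC45, which joins the MCM ring and GINS in the active helicase, gave 7.22, 6.20 and 6.76 CPM in NC and 3.61, 3.17 and 2.74 CPM in siRNA libraries. Each siRNA value lay far below the lowest NC value, and the log2 fold change was −1.08 both with NC library 3 (SE 0.19, edgeR adjusted p = 0.0387) and without it. MCM10, which assists activation and shares only its name with the ring, stood at 5.35, 4.76 and 4.10 CPM in NC and 2.83, 3.32 and 1.11 CPM in siRNA libraries. The third siRNA library was the lowest by a wide margin, and the log2 fold change of −0.97 had a standard error of 0.38 (edgeR adjusted p = 0.169). It was −0.62 without that library, and −1.07 without NC library 3, which passed (edgeR adjusted p = 0.0129). The 4 GINS genes had log2 fold changes between −0.65 and −0.47 and none passed. Of these, GINS1 and GINS4 passed without NC library 3, with log2 fold changes of −0.58 and −0.63.

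None of the 9 polymerase genes, 7 clamp genes or 6 genes of single-stranded DNA and Okazaki fragments was called. Their medians were −0.33, −0.31 and −0.35, and −0.27, −0.10 and −0.18 without NC library 3. PCNA, the most abundant member with a mean of 49.2 ± 7.78 FPKM in NC (SD, n = 3), was measured at 64.0, 60.8 and 91.7 CPM in NC and 54.9, 61.3 and 61.3 CPM in siRNA libraries. The groups overlapped, and NC library 3 stood above all other libraries (log2 fold change −0.29, edgeR adjusted p = 0.339, and −0.07 without that library). RFC3, a small subunit of the clamp loader, gave 13.5, 17.5 and 21.0 CPM in NC and 10.5, 11.3 and 10.3 CPM in siRNA libraries. The groups did not overlap, and the log2 fold change was −0.69 (SE 0.19, edgeR adjusted p = 0.0878), and −0.53 without NC library 3, which passed.

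PRIM1, the catalytic primase subunit, had the largest difference among the polymerase genes without passing, with 6.86, 8.17 and 13.4 CPM in NC and 7.07, 5.25 and 5.04 CPM in siRNA libraries (log2 fold change −0.72, edgeR adjusted p = 0.179). The groups overlapped, and the value was −0.38 without NC library 3. POLD2, an accessory subunit of polymerase delta and the most abundant of the polymerase genes, was measured at 77.9, 70.7 and 88.1 CPM in NC and 66.5, 61.7 and 59.9 CPM in siRNA libraries. The groups did not overlap (log2 fold change −0.33, edgeR adjusted p = 0.165, and −0.24 with an adjusted p of 0.00995 without NC library 3). POLA1, the catalytic subunit of polymerase alpha, had a log2 fold change of 0.25 (SE 0.13, edgeR adjusted p = 0.275).

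POLE, the catalytic subunit of polymerase epsilon, and DNMT1, the maintenance DNA methyltransferase, had positive fold changes and a very low value in NC library 3. POLE was measured at 40.0, 36.6 and 15.8 CPM in NC and 38.2, 39.8 and 38.1 CPM in siRNA libraries. DNMT1 was measured at 67.3, 63.5 and 30.5 CPM in NC and 65.0, 56.9 and 59.7 CPM in siRNA libraries. The log2 fold change of POLE went from 0.33 to 0.02 without NC library 3, that of DNMT1 from 0.17 to −0.11, and none of these passed. LIG1, the ligase that joins Okazaki fragments, went the other way, with 24.5, 19.9 and 9.33 CPM in NC and 15.4, 15.1 and 15.3 CPM in siRNA libraries. Its log2 fold change was −0.23 with all libraries (edgeR adjusted p = 0.670) and −0.54 without NC library 3 (edgeR adjusted p = 0.00117).

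The single-stranded DNA binding complex RPA was split. RPA2, its middle subunit, stood at 33.3, 35.6 and 61.3 CPM in NC and 41.2, 40.9 and 41.5 CPM in siRNA libraries, so that the siRNA values lay between NC libraries 1 and 2 on one side and NC library 3 on the other. Its log2 fold change was −0.08 (edgeR adjusted p = 0.852), and 0.26 without NC library 3 (edgeR adjusted p = 0.0176). RPA1, the largest subunit, had −0.31 with that library and −0.19 without it, and RPA3, the smallest, −0.64 and −0.18. RNASEH2A, the catalytic subunit of the RNase that removes RNA from hybrids with DNA, had the lowest fold change of its role, with 4.10, 4.22 and 5.31 CPM in NC and 3.46, 2.55 and 1.78 CPM in siRNA libraries (log2 fold change −0.81, SE 0.29, edgeR adjusted p = 0.142). FEN1, the flap endonuclease, had a log2 fold change of −0.39 with overlapping groups.

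The 4 nucleotide supply enzymes had a median of −0.70 and 1 call. RRM2, the small subunit of ribonucleotide reductase that is made in S phase, was measured at 25.4, 24.6 and 28.7 CPM in NC and 13.4, 15.1 and 14.4 CPM in siRNA libraries. The groups were far apart, and RRM2 had the smallest adjusted p of the 58 genes (log2 fold change −0.88, SE 0.13, edgeR adjusted p = 0.0303). RRM1, the large subunit, gave 45.8, 48.7 and 92.7 CPM in NC and 34.2, 33.2 and 32.8 CPM in siRNA libraries. NC library 3 was far above the rest, and the log2 fold change of −0.90 did not pass (SE 0.27, edgeR adjusted p = 0.106), whereas −0.50 without it did (edgeR adjusted p = 8.76e-05). On the FPKM scale the ratio of RRM1 to RRM2 was 3.89, 4.28 and 6.996 in NC and 5.53, 4.76 and 4.95 in siRNA libraries, with overlap.

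TK1 and TYMS, which supply thymidine nucleotides by salvage and by synthesis, differed in opposite directions. TYMS stood at 21.2, 16.9 and 20.03 CPM in NC and 12.9, 13.4 and 14.2 CPM in siRNA libraries (log2 fold change −0.52, SE 0.14, edgeR adjusted p = 0.0907). TK1 stood at 13.9, 13.4 and 13.1 CPM in NC and 18.6, 16.4 and 17.9 CPM in siRNA libraries (log2 fold change 0.39, SE 0.13, edgeR adjusted p = 0.125). Neither passed with all 6 libraries, although neither overlapped between groups, and both passed without NC library 3, at −0.49 and 0.37. The ratio of TK1 to TYMS on the FPKM scale was 0.860, 1.04 and 0.860 in NC and 1.896, 1.61 and 1.66 in siRNA libraries, each siRNA library being above each NC library.

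Fork protection and the chromatin factors of the fork held the remaining 4 calls. CLSPN (claspin), the adaptor of the replication checkpoint, was measured at 7.39, 7.54 and 8.45 CPM in NC and 3.46, 3.47 and 3.78 CPM in siRNA libraries. Both groups were narrow and far apart, with a log2 fold change of −1.12 (SE 0.17, edgeR adjusted p = 0.0304). DTL, the substrate receptor of the ubiquitin ligase that destroys CDT1 at PCNA, gave 8.29, 8.44 and 6.998 CPM in NC and 4.24, 3.94 and 4.15 CPM in siRNA libraries. The groups did not overlap (log2 fold change −0.94, SE 0.17, edgeR adjusted p = 0.0393). TIMELESS, a fork protection factor, stood at 22.8, 21.7 and 19.6 CPM in NC and 14.7, 14.9 and 12.4 CPM in siRNA libraries and just missed the threshold (log2 fold change −0.61, SE 0.14, edgeR adjusted p = 0.0629), whereas it passed at −0.67 without NC library 3. Its partner TIPIN did not follow, with 9.80, 10.8 and 18.5 CPM in NC, 10.9, 13.6 and 12.6 CPM in siRNA libraries and a log2 fold change of −0.08, which was 0.27 without NC library 3.

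WDR76, a WD40 protein found at chromatin, had the largest fold change of the 58 genes. It was measured at 14.4, 12.7 and 22.3 CPM in NC and 6.52, 7.18 and 5.70 CPM in siRNA libraries (log2 fold change −1.35, SE 0.24, edgeR adjusted p = 0.0387). NC library 3 was the highest, and the value without it was −1.07. CDCA7, which acts with the remodeller HELLS in DNA methylation, stood at 34.8, 29.9 and 23.8 CPM in NC and 13.0, 16.7 and 13.0 CPM in siRNA libraries (log2 fold change −1.05, SE 0.19, edgeR adjusted p = 0.0385). Here NC library 3 was the lowest of the controls, and the value without it was −1.18. ASF1B, a histone chaperone, had a log2 fold change of −0.69 (SE 0.17, edgeR adjusted p = 0.0706). UHRF1, which brings DNMT1 to newly copied DNA, had −0.40, and the CAF-1 subunits CHAF1A and CHAF1B had −0.36 and −0.46, none of which passed. Without NC library 3, ASF1B, UHRF1 and CHAF1A passed, at −0.78, −0.61 and −0.52.

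**Figure D3:**
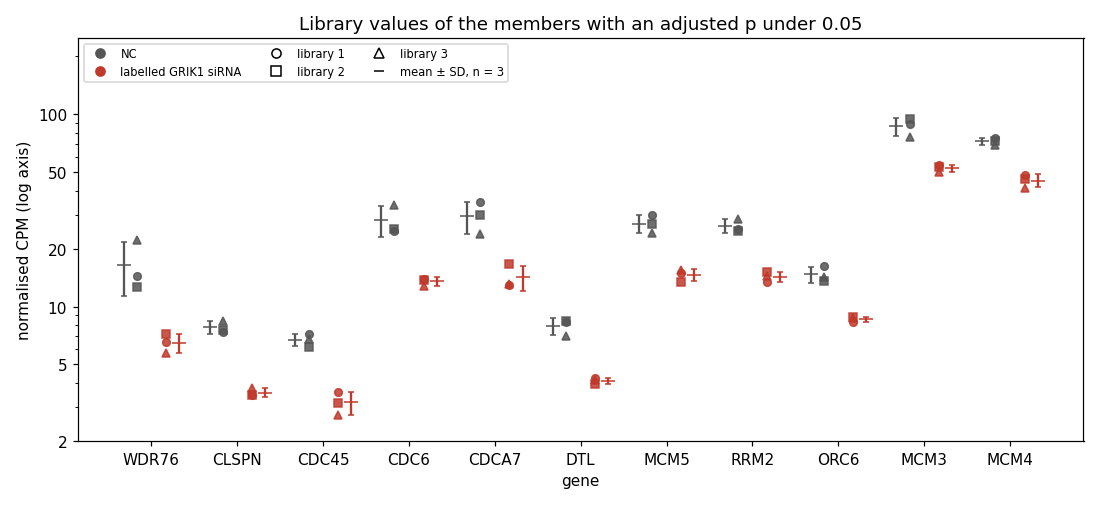
TMM-scaled CPM (log axis) of the 11 genes called lower, with circles, squares and triangles for libraries 1, 2 and 3 of NC (grey) and of the cells labelled GRIK1 siRNA (red), and bars for mean ± SD (n = 3). For each gene the highest siRNA point lies below the lowest NC point, and the NC triangle is the highest control for WDR76, CLSPN, CDC6 and RRM2 and the lowest for CDCA7, DTL, MCM5, MCM3 and MCM4.

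Of the 11 genes, 5 (WDR76, CLSPN, CDC45, CDC6 and CDCA7) also had a log2 fold change under −1, a limit passed together with the test by 0.542% of all genes in the lower direction. The 11 spanned a wide range of levels, from 0.783 FPKM for CLSPN to 23.1 FPKM for MCM3 in NC, where the median over all 58 genes was 3.88 FPKM. Their positions are given on GRCh38. WDR76 spans chr15:43826980-43868412, CLSPN chr1:35720218-35769978, CDC45 chr22:19479457-19520612 and CDC6 chr17:40287879-40304657. CDCA7 spans chr2:173354820-173368997, DTL chr1:212035553-212107400, MCM5 chr22:35400134-35425431 and RRM2 chr2:10120698-10211725. ORC6 spans chr16:46689643-46698394 and MCM3 chr6:52264014-52284881. The strand setting of the counting is not given in the sources used here. DTL shares 5 bases with INTS7 on the opposite strand and holds the pseudogene RPL21P28 on that strand, so some of its reads could belong to either. The same limit holds for members not called, some with longer shared spans. RNASEH2A shares 7057 bases with HOOK2 (181 to 433 counts) and TYMS 3261 with ENOSF1 (757 to 1415 counts). RPA3 shares 77897 bases with UMAD1 (385 to 570 counts). These partners are on the opposite strand. FEN1 shares 4259 bases with FADS2 on its own strand (64 to 318 counts).

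Other genes of replication were counted beside the 58, without a test of the difference between the lists. From a list of 52 further replication genes, 50 were tested and 35 had a negative fold change, with a median of −0.35, which was −0.14 without NC library 3. DUT, which removes dUTP from the nucleotide pool, was the only one called lower, with 112, 119 and 146 CPM in NC and 76.1, 73.5 and 77.3 CPM in siRNA libraries (log2 fold change −0.73, SE 0.13, edgeR adjusted p = 0.0393). CHTF18, part of an alternative clamp loader, was called higher, with 11.2, 9.16 and 3.22 CPM in NC and 37.9, 30.9 and 29.5 CPM in siRNA libraries (log2 fold change 2.06, SE 0.39, edgeR adjusted p = 0.0415, and 1.68 without NC library 3). DUT was 2% of the 50 tested genes, near the 1.48% of all tested genes called lower. CHTF18 was 1 of the 50, near the 1.61% of all tested genes called higher. DUT overlaps DUT-AS1, and CHTF18 overlaps RPUSD1 and GNG13, on the opposite strand. Reads of these partners cannot be told apart without strand. DUT-AS1 had 7 to 28 counts per library, beside 952 to 1821 for DUT. RPUSD1 had 94 to 129 counts and GNG13 0 to 10. CHTF18 had 40 to 126 counts in NC and 398 to 483 in siRNA libraries.

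Within the E2F and RB family, 11 of 13 genes were tested, 10 had a negative fold change and the median was −0.37 with and without NC library 3. E2F1, an activator E2F, was measured at 22.3, 23.3 and 19.9 CPM in NC and 8.80, 6.33 and 9.04 CPM in siRNA libraries. It was downregulated by a log2 fold change of −1.44 (SE 0.18, edgeR adjusted p = 0.0236), beyond the lowest value of the 58 replication genes, −1.35, by less than its standard error. TFDP1, a binding partner of E2F proteins, gave 137, 143 and 154 CPM in NC and 98.3, 95.4 and 102 CPM in siRNA libraries (log2 fold change −0.56, SE 0.11, edgeR adjusted p = 0.0448). Both genes had groups without overlap. They made up 18.2% of the 11 tested genes, where 1.48% of all tested genes were called lower. In a list of 24 mitosis and spindle genes, 18 had a negative fold change, the median was −0.18 (−0.04 without NC library 3), and 0 were called lower by edgeR, with 3 lower and 2 higher (KIF20A and ESPL1) at an unadjusted p under 0.05, beside 2090 lower and 1897 higher of the 15870 genes. KIF20A, a kinesin of cytokinesis, was called higher in this list, with 7.48, 5.39 and 5.95 CPM in NC and 13.7, 13.4 and 11.5 CPM in siRNA libraries (log2 fold change 1.03, SE 0.18, edgeR adjusted p = 0.0378), and it overlaps CDC23 and BRD8. It was the only 1 of the 24 genes called, where 1.61% of all tested genes were called higher.

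**Figure D4:**
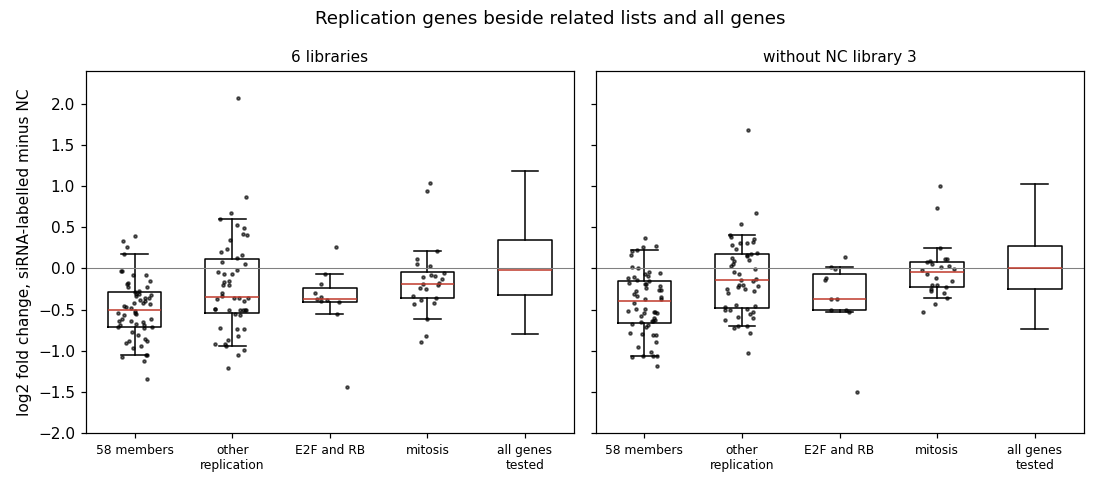
Log2 fold change (siRNA against NC) with 6 libraries (left) and without NC library 3 (right) for the 58 members, the other replication genes (50), the E2F and RB family (11), the mitosis genes (24) and all 15870 genes tested, with 1 point per gene of a list, boxes for the quartiles, red lines for the medians and whiskers from the 5th to the 95th percentile. The medians of the lists on the left are −0.50, −0.35, −0.37 and −0.18 beside −0.02 for all genes.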

How the data were processed

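Libraries were grouped by their labels alone, as 3 NC and 3 labelled GRIK1 siRNA, all from total RNA of U87-MG cells. The authors deposited whole-number counts per gene without normalization. They also deposited FPKM values, and 100% of these equalled the count divided by exonic size and library total within 0.0051. The submitters' processing notes name cutadapt 1.9.1, HISAT2, HTSeq and GRCh38. A test for these libraries is not given in the sources used here. No library was pooled, and 0 columns lacked a sample.

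Genes with a mean FPKM of at least 0.5 (15870) were tested on counts with the quasi-likelihood test of edgeR 4.0.16 (R 4.3.3, legacy setting, TMM scaling, no block), adjusted by the Benjamini-Hochberg method. Calls were made at an adjusted p under 0.05. DESeq2 1.42.0 and limma 3.58.1 were alternatives. Two-sided p-values are given. The fits were tested on simulated data, with counts drawn independently for each library. No simulated library stood apart as NC library 3 did, so the simulation cannot show how that library affects the calls. Exact permutation of 3 against 3 libraries cannot go below 0.1 and was not used. CPM was scaled by TMM over the tested genes, and overlap of groups was read on CPM.

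Members, gene lists and alternatives were chosen with earlier results of these data known. Full statistics were given for called members and called genes of the other replication, E2F and mitosis lists, and library values for up to 2 further members per role with the largest fold change or highest FPKM. Other members named with their values (CDT1, RRM1, TYMS, TK1, POLE, DNMT1, LIG1, RPA2, TIPIN, TIMELESS and MCM2 among them) were chosen after their values were seen.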

Additional observations from a re-analysis of the deposited data

How the results depend on the processing

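With size factors of median ratios, robust quasi-likelihood or edgeR without the legacy setting (the last 2 chosen after seeing the data), the number of genes called stayed within 1.5 times of the value reported. All genes called numbered 490, and 1403 without the filter, 1684 with DESeq2 and 280 with limma on log2(FPKM + 0.1). With an absolute log2 fold change over 1 they numbered 224, and 664 without the filter, 499 with DESeq2, 113 with limma on log2(FPKM + 1) and 125 with a pseudocount of 0.1. Members called lower numbered 11, and 19 with DESeq2 and 3 (CDC6, RRM2 and WDR76) with limma at either pseudocount. The members' median of −0.50 became −0.45 at a minimum of 1 FPKM, and −0.24 and −0.36 with limma at pseudocounts of 1 and 0.1. The limma fits used FPKM without TMM scaling. In them the median over all genes was 0.06 and 0.09, against −0.02 in the main fit. A pseudocount also understates the fold changes of low genes. The part of each was not tested.

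Leaving out 1 library gave 0 to 5591 genes called, 0 to 491 of them with the fold, 0 to 30 members called lower, 0 to 2 called higher and medians from −0.58 to −0.40. The upper counts were those without NC library 3. The same-numbered libraries correlated at −0.07, 0.04 and −0.04 in their deviations from the group means. Libraries of different numbers correlated between −0.06 and 0.08. These values did not show pairing by number, and with 3 libraries in each group they cannot exclude it. With the number as a replicate block, edgeR called 0 genes, 0 with the fold and 0 members lower. At an unadjusted p under 0.05, 3324 genes and 22 members lower were left.

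Of the members not called, 7 changed sign in some fit. ORC3 gave 0.076 and 0.084 with limma at pseudocounts of 1 and 0.1 and −0.20 to 0.21 with 1 library left out. RFC1 gave 0.063 and 0.070 with limma and −0.14 to 0.16, RPA2 0.063 and 0.067 with limma and −0.23 to 0.26, and TIPIN 0.049 and 0.064 with limma and −0.24 to 0.27. With 1 library left out, ORC5 lay between −0.35 and 0.00058, LIG1 between −0.54 and 0.067 and DNMT1 between −0.11 and 0.37. The cause was not tested.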
